A study of Mus musculus with 6 samples.

Results

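MHC class II molecules present peptides to CD4+ T cells, and their expression in bone marrow progenitors is one of the early signs of priming toward dendritic cells and other antigen-presenting cells. The 6 genes followed here, of 18193 genes with a named probe set, were the class II chains H2-Aa, H2-Ab1 and H2-Eb1, the peptide exchange factor chain H2-DMa, the invariant chain Cd74 and the master transcriptional activator Ciita. They were read by all probe sets whose platform annotation gave exactly 1 gene symbol, that of one of the 6 genes, and 14 of the 45101 probe sets on the array met this. H2-Aa had 4 of them, H2-Ab1 and Ciita 3 each, H2-DMa 2, and H2-Eb1 and Cd74 1 each. No measured value entered this choice of probe sets. The 6 genes themselves were chosen with earlier results of these data known.

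The cells were common myeloid progenitors (CMP) from the bone marrow of C57BL6 mice, flushed from the leg and hip bones and sorted after staining with H2-DCFDA, a dye that fluoresces once reactive oxygen species (ROS) have oxidised it. High-ROS CMP and low-ROS CMP, 3 arrays each, came from opposite ends of this staining, per the labels, and neither group carried a genetic change or a drug. The series asks what ROS do as CMP become megakaryocyte-erythrocyte progenitors. Whether replicates were drawn from different animals or sorts is not in the labels, so p-values measure only the spread between these arrays, which may be technical.

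In the classical pathway, an alpha and a beta chain assemble in the endoplasmic reticulum around the invariant chain, which blocks the peptide groove and sends the complex to endosomes. Proteases such as cathepsin S trim the invariant chain to a short peptide, and the heterodimer of H2-DMa with an H2-DMb chain exchanges that peptide for an antigenic one. Ciita binds no DNA itself, but is recruited to a shared promoter module, the X and Y boxes, by the RFX complex, CREB and the CCAAT-binding factor NF-Y. Strains of the b haplotype such as C57BL6 carry a defective H2-Ea gene, so their H2-Eb1 chain lacks its partner, and H2-Aa paired with H2-Ab1 forms their only classical class II molecule.

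The promoter windows of H2-Aa and H2-Eb1 are shown because both hold this module and both genes were measured well above the array medians. RefSeq windows (build GRCm38.p6, 250 bases before to 50 after the start) were found for 3 of the 6 members, H2-Aa, H2-Eb1 and H2-DMa. Capitals mark exact matches on either strand to GCAAC (the core of the X1 box), TGATG (a core of the X2 box), TGACGTCA (the CREB-type palindrome) and CTGATTGG (the Y box, which contains CCAAT on the other strand).
H2-Aa, chr17:34287774-34288073, minus strand: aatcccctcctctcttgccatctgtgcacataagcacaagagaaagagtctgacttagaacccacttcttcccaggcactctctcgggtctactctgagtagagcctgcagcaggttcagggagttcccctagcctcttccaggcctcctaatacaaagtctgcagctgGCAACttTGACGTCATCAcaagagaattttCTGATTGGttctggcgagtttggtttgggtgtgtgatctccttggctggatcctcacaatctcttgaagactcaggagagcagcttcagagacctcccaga
H2-Eb1, chr17:34305617-34305916, plus strand: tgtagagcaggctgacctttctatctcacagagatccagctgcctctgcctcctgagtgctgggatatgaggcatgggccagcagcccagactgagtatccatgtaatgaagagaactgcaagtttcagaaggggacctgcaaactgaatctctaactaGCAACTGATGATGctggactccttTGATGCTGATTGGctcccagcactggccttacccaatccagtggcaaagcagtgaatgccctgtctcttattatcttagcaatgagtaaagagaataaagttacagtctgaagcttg

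Both windows carry the boxes in the same order, X1, then X2 and then Y. The Y box begins 51 bases before the start in H2-Aa and 62 bases before it in H2-Eb1. In H2-Aa the palindrome overlaps a TGATG match on the other strand, and in H2-Eb1 2 TGATG matches overlap each other. CTGATTGG is present in 4.1% of the 32851 promoter windows of the same length, TGACGTCA in 1.79%, GCAAC in 35.2% and TGATG in 39.3%, so the short cores are common. Of the 8 class II genes with a window, 4 hold CTGATTGG: H2-Aa, H2-Eb1, H2-Eb2 and H2-Oa. Only exact matches are counted, so a Y box with other letters would be missed. H2-Ob, H2-DMb1 and H2-DMb2 hold CCAAT on the other strand, with first bases at -57, -61 and -90 from the start. CCAAT is present in 37.4% of all windows. The H2-DMa windows do not contain CTGATTGG either, and one holds CCAAT on the other strand at -198. A match is a description of the letters and not evidence of binding.

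None of the 14 probe sets of the class II genes passed the test between high-ROS and low-ROS CMP, and the brightest probe sets of both I-A chains and of Cd74 had folds of 1.05 to 1.07. At an adjusted p under 0.05 (limma across all probe sets, Benjamini-Hochberg) 0 of 14 were called, where 0.0222% of all 45037 probe sets tested were. At an unadjusted p under 0.05 there was 1 of 14, a dim Ciita probe set, against 6.96% of all probe sets. Groups did not overlap for 3 of 14, against 12.7% of all probe sets. High-ROS CMP lay above for 2 of these (6.72% of all probe sets) and below for 1 (5.95% of all probe sets). Of the 14, 9 had a higher and 5 a lower mean log2 signal in high-ROS CMP. Their median log2 difference was 0.09, beside 0.0018 over all probe sets.

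**Figure D1:**
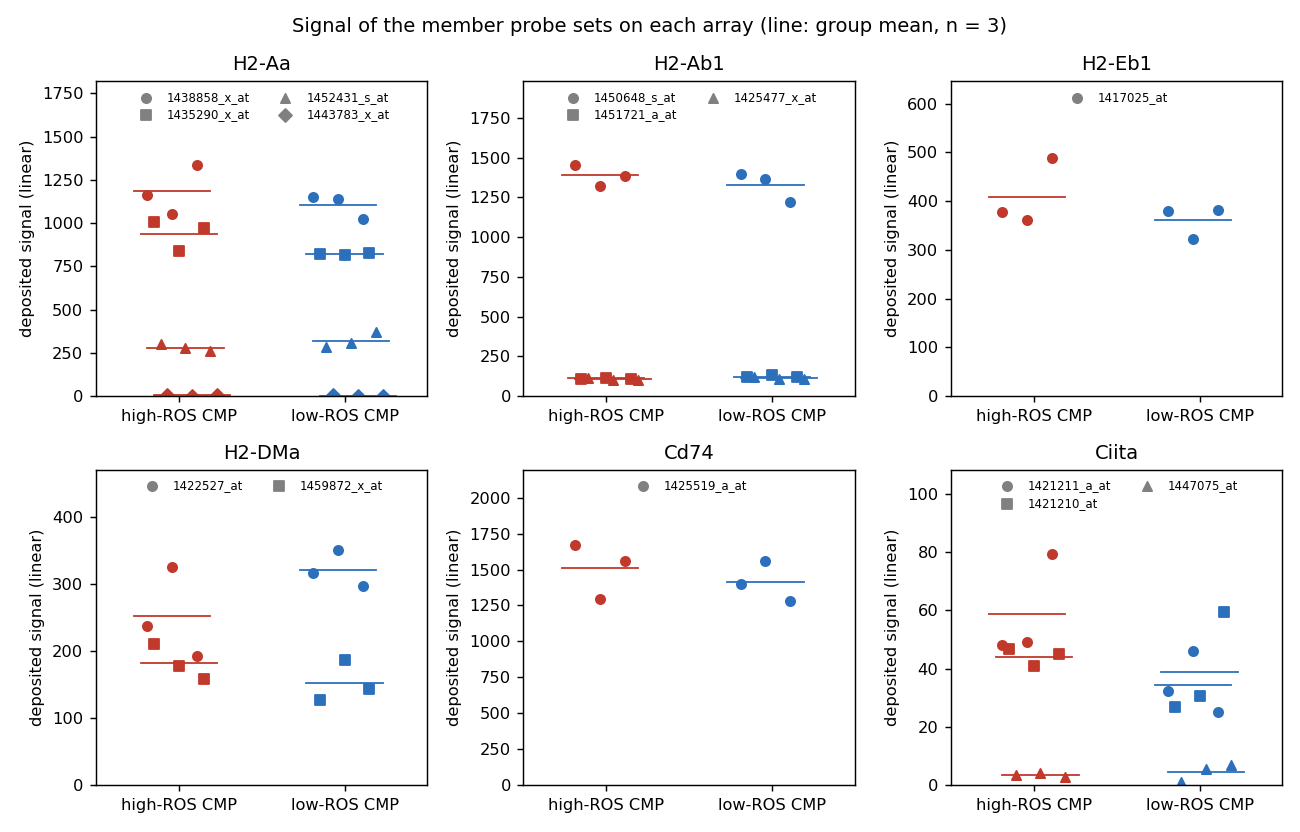
Deposited linear signal (y axis, own scale per gene, from 0) of every probe set of the 6 genes on the 3 high-ROS and 3 low-ROS CMP arrays. Points are arrays, in replicate order within a group, and lines are group means. For most probe sets the 2 groups lie over the same range. Ciita stays under 80 on every array.

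H2-Ab1 encodes the beta chain of the I-A molecule. Its brightest probe set (1450648_s_at, Entrez Gene 14961) read 1456, 1322 and 1386 in high-ROS CMP replicates 1 to 3 and 1399, 1364 and 1221 in low-ROS CMP replicates 1 to 3. The groups overlapped, with means of 1388 ± 66.9 in high-ROS CMP and 1328 ± 94.3 in low-ROS CMP (SD, n = 3 each). The fold was 1.05 with a 95% interval of 0.888 to 1.23 (log2 difference 0.06, SE 0.107, limma adjusted p = 0.923). Folds and differences are on the scale of signal plus 16, the pseudocount used throughout.

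The other 2 H2-Ab1 probe sets were dimmer and pointed slightly the other way. Probe set 1451721_a_at read 110, 115 and 111 in high-ROS CMP and 121, 132 and 118 in low-ROS CMP, so the groups did not overlap. Its log2 difference was -0.12 (SE 0.179, limma adjusted p = 0.91). Probe set 1425477_x_at read 116, 103 and 105 in high-ROS CMP and 119, 109 and 109 in low-ROS CMP, with overlapping groups and a log2 difference of -0.05. These 2 probe sets name the same source transcript in the annotation, so they are not independent readings.

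H2-Aa encodes the alpha chain of I-A. Its brightest probe set (1438858_x_at, Entrez Gene 14960) read 1165, 1056 and 1335 in high-ROS CMP and 1152, 1138 and 1026 in low-ROS CMP. The fold was 1.07 with a 95% interval of 0.886 to 1.29 (log2 difference 0.09, SE 0.122, limma adjusted p = 0.901), and the groups overlapped. Probe set 1435290_x_at read 1008, 837 and 972 in high-ROS CMP and 820, 818 and 825 in low-ROS CMP. All 3 high-ROS arrays were above all 3 low-ROS arrays, which hardly differed among themselves, but the log2 difference of 0.19 (SE 0.119) did not pass (limma adjusted p = 0.776).

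The third H2-Aa probe set had a difference of the opposite sign. Probe set 1452431_s_at read 299, 279 and 259 in high-ROS CMP and 286, 307 and 371 in low-ROS CMP, a log2 difference of -0.19 (SE 0.159, limma adjusted p = 0.831). Probe set 1443783_x_at stayed far under the array medians on all arrays, with means of 5.21 in high-ROS and 3.6 in low-ROS CMP, and gives no reading of the gene. The suffix x marks probes that match other transcripts as well and the suffix s marks probes shared by several transcripts, so signal from related class II sequences cannot be told apart in these probe sets.

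H2-Eb1 encodes the beta chain of the I-E molecule. Its single probe set (1417025_at, Entrez Gene 14969) read 377, 362 and 489 in high-ROS CMP and 379, 322 and 382 in low-ROS CMP. High-ROS replicate 3 was the highest array, and the other 5 overlapped between groups. The fold was 1.12 with a 95% interval of 0.876 to 1.44 (log2 difference 0.16, SE 0.161, limma adjusted p = 0.858). Without high-ROS replicate 3 the log2 difference was 0.035.

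H2-Ea, the missing partner of that chain, was read beside it. Its brightest probe set read 11.1, 9.72 and 11.5 in high-ROS CMP and 2.98, 4.81 and 13.2 in low-ROS CMP, and its other 2 probe sets averaged 2.22 and 5.16 in high-ROS CMP and 2.43 and 4.67 in low-ROS CMP. All 3 were thus under the array medians of 40.4 to 42.5, while the H2-Eb1 probe set was above them on every array. RefSeq lists H2-Ea as a transcribed pseudogene. No array here is of a strain with an intact H2-Ea, so the low signal cannot check the strain.

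Cd74 encodes the invariant chain, the chaperone of newly made class II molecules. Its probe set (1425519_a_at, Entrez Gene 16149) read 1670, 1295 and 1563 in high-ROS CMP and 1397, 1562 and 1279 in low-ROS CMP. The ranges were nearly the same, with means of 1509 ± 193 in high-ROS CMP and 1413 ± 142 in low-ROS CMP (SD, n = 3 each). The fold was 1.07 with a 95% interval of 0.877 to 1.29 (log2 difference 0.09, SE 0.127, limma adjusted p = 0.908).

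**Figure D2:**
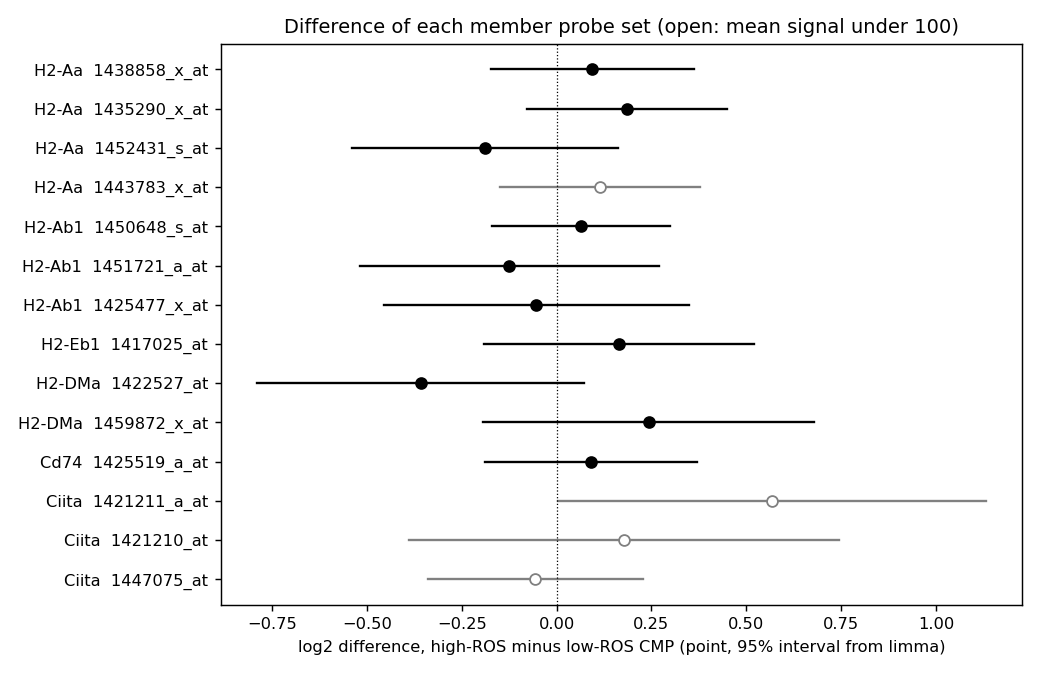
Log2 difference, high-ROS minus low-ROS CMP (x axis), of the 14 probe sets of the 6 genes (rows), with 95% intervals from limma. Open grey symbols are probe sets with a mean signal under 100. The interval of 13 probe sets includes 0, and that of Ciita 1421211_a_at runs from 0.004 to 1.13.

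For the 10 probe sets with a mean signal of at least 100, the 95% intervals together reached from -0.79 to 0.68 on the log2 scale. The widest were those of H2-DMa. The brightest probe sets of H2-Aa, H2-Ab1 and Cd74 were bounded more tightly, and their 3 intervals together ran from 0.877-fold to 1.29-fold. The within-group spread of the 10 probe sets was small, with a median residual SD of 0.141 on the log2 scale, beside 0.204 over the 16129 probe sets of at least that signal. Their median absolute log2 difference was 0.145, beside 0.154 over those probe sets.

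H2-DMa encodes the alpha chain of the peptide exchange factor DM, and its 2 probe sets had differences of opposite sign. Probe set 1422527_at (Entrez Gene 14998) read 238, 326 and 192 in high-ROS CMP and 316, 351 and 296 in low-ROS CMP, a log2 difference of -0.36 (SE 0.195, 95% interval -0.79 to 0.07, limma adjusted p = 0.742). High-ROS replicate 3 was the lowest array, and without it the log2 difference was -0.19. Probe set 1459872_x_at read 210, 177 and 159 in high-ROS CMP and 127, 187 and 144 in low-ROS CMP, a log2 difference of 0.24 (SE 0.198, limma adjusted p = 0.821). The groups overlapped for both.

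Within each array, the log2 signal of 1459872_x_at minus that of 1422527_at was -0.17, -0.82 and -0.25 in high-ROS CMP and -1.22, -0.86 and -0.97 in low-ROS CMP. The groups did not overlap, and the mean shift was 0.60, for which an exact two-sided permutation test gave p = 0.1, the smallest that 3 arrays against 3 allow. Over the 7 such pairs of probe sets compared the adjusted p was 0.233. The 2 probe sets of this gene therefore give no common direction.

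**Figure D3:**
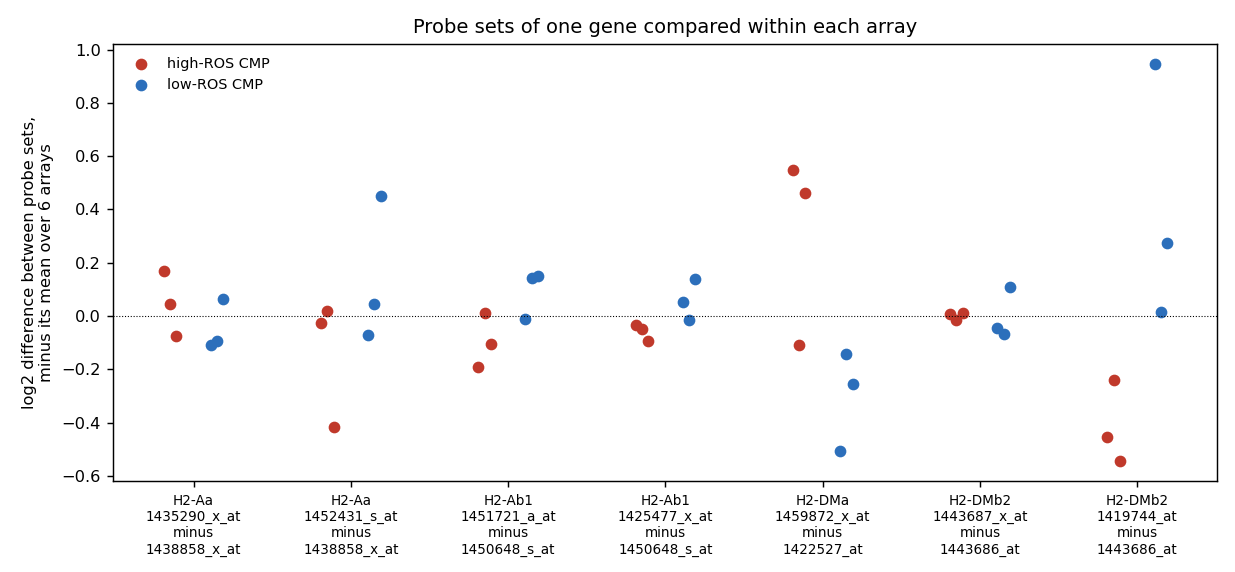
Within-array log2 difference between a probe set and the brightest probe set of the same gene, less its mean over the 6 arrays (y axis), for each pair with a mean signal of at least 100 (x axis). Points are arrays, high-ROS CMP left of low-ROS CMP. The groups separate for the H2-DMa pair, for one H2-Ab1 pair and for one H2-DMb2 pair, and overlap for the other 4.

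H2-DMb2, which encodes one of the DM beta chains, had a like disagreement between probe sets. Its probe sets 1443686_at and 1443687_x_at had log2 differences of 0.20 each. Probe set 1419744_at read 176, 180 and 160 in high-ROS CMP and 419, 221 and 220 in low-ROS CMP, with no overlap and a log2 difference of -0.62 (SE 0.237, limma adjusted p = 0.702). Without low-ROS replicate 1 this was -0.33. The within-array difference between 1419744_at and 1443686_at was lower in high-ROS CMP by 0.82 on average (exact permutation p = 0.1, adjusted 0.233, mean -0.64 in high-ROS CMP and 0.18 in low-ROS CMP). This pair was chosen after its values were seen, and H2-DMb1, a close copy with no probe set of its own name here, is not analysed here.

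Ciita encodes the coactivator that switches class II genes on. All 3 of its probe sets were near or under the array medians. The brightest, 1421211_a_at (Entrez Gene 12265), read 48.2, 49.1 and 79.5 in high-ROS CMP and 32.2, 45.9 and 25.1 in low-ROS CMP. High-ROS arrays were all above low-ROS arrays, though narrowly, and the fold was 1.48 with a 95% interval of 1.003 to 2.19 (log2 difference 0.57, SE 0.255, unadjusted p = 0.0487, adjusted p = 0.717, limma). This was the lowest adjusted p among the 14 probe sets.

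The other Ciita probe sets give no second reading of such a difference. Probe set 1421210_at read 46.6, 41.0 and 44.9 in high-ROS CMP and 26.7, 30.6 and 59.4 in low-ROS CMP, with overlapping groups and a log2 difference of 0.18 (SE 0.256). Probe set 1447075_at averaged 3.45 in high-ROS and 4.36 in low-ROS CMP. The log2 difference of 1421211_a_at was 0.38 without high-ROS replicate 3, its brightest array, and 0.24 (SE 0.321) once the Gapdh 3' to 5' ratio was added to the fit. A probe set at this brightness is read with little precision.

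Across the 6 arrays, the mean centred log2 profile of the 6 genes (1 probe set each, the brightest) spanned 0.30, from -0.16 in low-ROS replicate 3 to 0.14 in high-ROS replicate 3. Ciita spanned 1.22 and H2-DMa 0.82, against 0.25 for H2-Ab1, 0.37 for H2-Aa, 0.38 for Cd74 and 0.58 for H2-Eb1. In low-ROS replicate 3, H2-Aa, H2-Ab1, Cd74 and Ciita each had their lowest value. H2-DMa had its lowest value in high-ROS replicate 3, where H2-Aa, H2-Eb1 and Ciita had their highest. Among 14068 other probe sets with 1 gene symbol and a mean signal of at least 100, the profiles closest to this mean were those of Cit, Abraxas2, Atp6v1g1, Sh3rf1 and Fam120a, with root mean square differences of 0.026 to 0.031 on the log2 scale. A difference under 0.1 was found for 1019 of those probe sets, since many profiles were as flat, so the likeness is not specific.

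High-ROS replicate 3 and low-ROS replicate 1 were the 2 extremes of principal component 1, which held 33.5% of the variance. The Gapdh 3' to 5' control ratio, a measure of RNA integrity and labelling, was 3.57, 2.997 and 4.53 in high-ROS CMP and 3.19, 2.84 and 2.54 in low-ROS CMP. Its part in the results was not tested beyond its use as a covariate, under which Cd74, H2-Eb1 and the brightest probe sets of H2-Aa and H2-Ab1 had log2 differences of -0.05, -0.03, -0.10 and -0.01 and the H2-DMa probe set 1422527_at -0.06. The gate markers were present, with means of 545 in high-ROS and 642 in low-ROS CMP for Kit and 584 in high-ROS and 417 in low-ROS CMP for Cd34. Kit had a log2 difference of -0.22, and -0.11 without low-ROS replicate 1. Its other, dimmer probe set 1415900_a_at averaged 69.3 in high-ROS and 139 in low-ROS CMP without overlap (log2 difference -0.82, SE 0.275, unadjusted p = 0.0131, adjusted p = 0.69, limma). The Cd34 log2 difference of 0.40 (SE 0.262) ranged, with 1 array left out, between 0.14 (high-ROS replicate 2 omitted) and 0.73 (high-ROS replicate 3 omitted), and was 1.07 (SE 0.166) with the Gapdh ratio in the fit. Of the 10 CMP gate and progenitor genes 1 passed, Gata2, a factor of stem and early megakaryocytic cells, with 206 in high-ROS and 597 in low-ROS CMP (log2 difference -1.48, limma adjusted p = 0.0147). The groups did not overlap, but the call was lost with no mean-variance trend (limma adjusted p = 0.103), with the Gapdh ratio in the fit (limma adjusted p = 0.203), and without high-ROS replicate 1 or any 1 of the low-ROS arrays (limma adjusted p of 0.107 to 0.184). Its other probe set had a log2 difference of -0.72 (SE 0.158, limma adjusted p = 0.421).

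Cells of other types, among them types that carry class II constitutively, were looked for by their markers. Of 11 measured B cell markers none passed (0 higher, 0 lower), their summed signal was 2879 to 3882 in high-ROS CMP and 2842 to 3963 in low-ROS CMP, and 3 had a mean under 100. Cd79a, a chain of the B cell receptor, averaged 251 in high-ROS and 253 in low-ROS CMP, and Cd79b 734 in high-ROS and 796 in low-ROS CMP. Of 11 mature dendritic cell markers none passed, with sums of 1109 to 1292 in high-ROS CMP and 984 to 1210 in low-ROS CMP, and 7 had a mean under 100, Itgax (CD11c) among them at 87.5 in high-ROS and 89.1 in low-ROS CMP. Siglech, a plasmacytoid dendritic cell receptor, averaged 267 in high-ROS and 295 in low-ROS CMP. Macrophage markers summed to 3327 to 3846 in high-ROS CMP and 2951 to 3595 in low-ROS CMP, with 0 of 12 called, and the complement gene C1qa at 31.8 in high-ROS and 34.9 in low-ROS CMP. T and NK cell markers (0 of 9 called) summed to 2352 to 2637 in high-ROS CMP and 2550 to 2835 in low-ROS CMP, and neutrophil markers (0 of 8 called) to 50247 to 52907 in high-ROS CMP and 50755 to 55382 in low-ROS CMP. Each of the 8 neutrophil markers was lower by mean log2 signal in high-ROS CMP. The median of their log2 differences was -0.10. For 3 of them the groups did not overlap, beside 5.95% of all probe sets lower without overlap. S100a9, S100a8 and Camp had -0.005, -0.01 and -0.03, and each changed sign for some choice of the array left out. Under the Gapdh covariate Cxcr2, Mmp8 and Lcn2 had 0.05 each, Camp 0.04, S100a8 0.003 and S100a9 0.03. Ltf and Ngp had -0.05 and -0.03 in that fit. By the lowest p in each list, log2 differences were 0.37 for Blnk and 0.22 for Ms4a1 of the B cell list, 0.39 for Ccr9, 0.34 for Bst2 and -0.54 for Cd209a of the dendritic cell list, and 0.46 for Cd163, -0.41 for Axl and 0.37 for C1qb of the macrophage list. They were -0.43 for Cd247, 0.27 for Cd3e and -0.19 for Cd2 of the T and NK cell list, and -0.37 for Cxcr2, -0.13 for Ltf and -0.30 for Mmp8 of the neutrophil list. Of these 14 values, those of Bst2 and Ltf alone moved by less than 1.5 times whichever array was left out. Without high-ROS replicate 3, Mmp8 had -0.05, Cd247 and Cxcr2 -0.16 each, Axl -0.24 and C1qb 0.16. Without low-ROS replicate 1, Blnk had 0.07, Ms4a1 0.04, Ccr9 0.25 and Cd209a -0.18. Cd3e had 0.13 and Cd2 -0.07 without low-ROS replicate 2, and Cd163 had 0.24 without low-ROS replicate 3. The part of such cells in the class II signal was not tested, and in sorted bulk samples fewer cells of a type and less RNA per cell cannot be told apart.

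Other genes of the class II pathway did not pass either. Of 5 further chains and chaperones 0 passed, 4 were higher and 1 lower in high-ROS CMP. H2-Ob, a chain of the DM inhibitor DO, read 237, 248 and 332 in high-ROS CMP and 393, 335 and 283 in low-ROS CMP (log2 difference -0.30, SE 0.184), and its partner H2-Oa had 0.15 (SE 0.186). Of 10 genes of peptide loading and class II turnover 0 passed, with a median log2 difference of -0.01. Cathepsin S, Ctss, which trims the invariant chain, averaged 2429 in high-ROS and 2291 in low-ROS CMP, Ctsl had -0.12, and the ubiquitin ligase gene Marchf8 had -0.13. Cst3, the cysteine protease inhibitor cystatin C, had -0.24, and 0.05 without high-ROS replicate 3.

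The genes whose products bind the X and Y boxes were listed together with the acetyltransferase genes Ep300, Crebbp and Kat2b. None of this list was called (0 of 10, 7 higher and 3 lower, median log2 difference 0.10). Rfx5, a subunit of the RFX complex, averaged 394 in high-ROS and 358 in low-ROS CMP (log2 difference 0.14, SE 0.163). The NF-Y subunits Nfyc and Nfya had log2 differences of 0.44 (SE 0.221) and -0.34 (SE 0.203). On these probe sets both rested largely on high-ROS replicate 3, without which they were 0.18 and -0.05. The Nfya probe sets 1427808_at and 1452560_a_at had -0.26 each (SE 0.196 and 0.136), with overlapping groups. Probe set 1452560_a_at read 1096, 964 and 864 in high-ROS CMP and 1341, 1129 and 1036 in low-ROS CMP. The acetyltransferase Ep300 had 0.28, and 0.14 without high-ROS replicate 3.

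Among regulators that act on Ciita, Irf8 had the lowest p. Irf8, a transcription factor of dendritic cells and monocytes, read 1215, 1086 and 775 in high-ROS CMP and 582, 737 and 574 in low-ROS CMP on its brightest probe set. The groups did not overlap, but the log2 difference of 0.67 (SE 0.176) did not pass over all probe sets (limma adjusted p = 0.597), and its other probe set had 0.25. Irf4, which acts in other dendritic cells and in B cells, had -0.43 (SE 0.235), and -0.12 without high-ROS replicate 3. The other Irf4 probe set, 1421174_at, had -0.45 without overlap (SE 0.184, unadjusted p = 0.0327, adjusted p = 0.702, limma). Ifngr2 and Jak1, which carry the interferon gamma signal, had 0.36 (SE 0.170) and -0.36 (SE 0.142), and the Ets factor Spi1 -0.01. The dimmer Ifngr2 probe set 1423558_at had -0.17 (SE 0.199), and the other Jak1 probe sets had -0.12 and -0.11. With the Gapdh ratio in the fit, the brightest probe set of Irf8 had 0.90 (SE 0.204). Those of Irf4, Ifngr2, Jak1 and Spi1 had 0.08, 0.23, -0.13 and -0.11. Of 12 measured regulators 0 passed, 3 were higher and 9 lower in high-ROS CMP, with a median of -0.14.

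**Figure D4:**
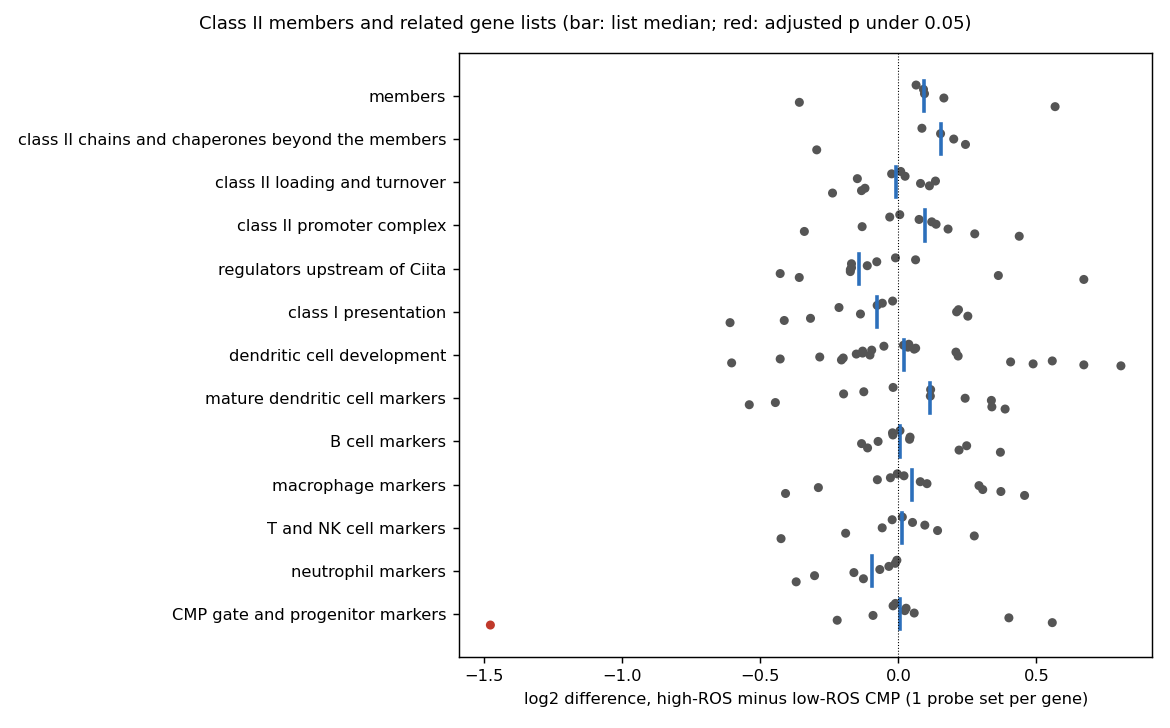
Log2 difference, high-ROS minus low-ROS CMP (x axis), of each gene (point, brightest probe set) of the 6 members and of 12 lists (rows). The blue bar is the list's median, and red marks an adjusted p under 0.05, which Gata2 alone reached. The class II members lie between -0.36 and 0.57.

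Genes of dendritic cell development had differences of both signs. Of 23 measured, 0 passed, 12 were higher and 11 lower in high-ROS CMP, and their median log2 difference was 0.02. Ly86, the partner of the receptor RP105, had 0.81 (SE 0.154, limma adjusted p = 0.239), Csf1r, which encodes the macrophage growth factor receptor CD115, 0.49 (SE 0.139), and Flt3, the receptor for the main dendritic cell growth factor, 0.56 (SE 0.260). Flt3 read 330, 274 and 146 in high-ROS CMP and 147, 149 and 173 in low-ROS CMP, so that high-ROS replicate 3 was the lowest of all, and without it the log2 difference was 0.88. Bcl11a, a transcription factor of lymphoid and dendritic cell development, was the gene of this list with a lower value at an unadjusted p under 0.05, and was chosen after its values were seen. It read 298, 391 and 207 in high-ROS CMP and 509, 430 and 412 in low-ROS CMP, without overlap (log2 difference -0.60, SE 0.211, unadjusted p = 0.0158, adjusted p = 0.701, limma). Without high-ROS replicate 3 this was -0.38, and its other 6 probe sets had log2 differences of -0.20 to 0.28. With the Gapdh ratio in the fit, Ly86 had 0.98 (SE 0.181), Csf1r 0.49 (SE 0.178) and Flt3 1.03 (SE 0.277). The brightest Bcl11a probe set had -0.28 (SE 0.239) in that fit. Over the 23 genes, 4 lay higher and 2 lower in high-ROS CMP without overlap, beside 6.72% higher and 5.95% lower of all probe sets.

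Whether such genes shifted relative to the invariant chain was compared within each array, for 6 genes picked with their values known. The log2 signal of Irf8 minus that of Cd74 was -0.45, -0.25 and -0.997 in high-ROS CMP and -1.24, -1.07 and -1.13 in low-ROS CMP, a mean shift of 0.58 with no overlap (exact permutation p = 0.1, adjusted 0.3). Ly86 shifted by 0.72 relative to Cd74, also with no overlap (exact permutation p = 0.1, adjusted 0.3). For Csf1r the shift was 0.40 (exact permutation p = 0.2) and for Flt3 0.47 (exact permutation p = 0.4). None could reach 0.05 in this design, so a difference in response between these genes and Cd74 is not established.

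MHC class I genes, which present peptides to CD8+ T cells, were not called, with 3 higher and 8 lower in high-ROS CMP of 11 measured. H2-D1 read 2681, 3272 and 1310 in high-ROS CMP and 3572, 3879 and 2973 in low-ROS CMP, a log2 difference of -0.61 (SE 0.266, limma adjusted p = 0.712), and -0.22 without high-ROS replicate 3. H2-K1 had -0.41 (SE 0.189), and -0.15 without that array. Tapbp, the class I chaperone tapasin, had -0.32, and -0.12 without it, and B2m, the light chain of class I, -0.14 (SE 0.0895). The H2-D1 probe sets 1425545_x_at, 1451784_x_at and 1451683_x_at had -0.30, -0.30 and -0.19, and the dimmer 1450170_x_at 0.01. For H2-K1 the other probe sets had -0.55, -0.35 and -0.13. With the Gapdh ratio in the fit, H2-D1, H2-K1, Tapbp and B2m had -0.06, 0.03, 0.04 and 0.02. The higher genes were Psmb10, an immunoproteasome subunit, with 0.25 (SE 0.131) and no overlap, the peptide transporter gene Tap1 with 0.21 (SE 0.142) and the peptide-trimming Erap1 with 0.22 (SE 0.193), named after their values were seen. They stayed higher without any 1 array, at no less than 0.15, 0.10 and 0.06. Of all probe sets, 6.72% were higher in high-ROS CMP without overlap. Psmb9 and Psmb8, also immunoproteasome subunit genes, had -0.22 and -0.08, and 0.02 and 0.18 without high-ROS replicate 3. The median of the class I list was -0.08, which was 0.07 without high-ROS replicate 3. Relative to Cd74 within each array, H2-D1 shifted by -0.70 (exact permutation p = 0.3) and H2-K1 by -0.50 (exact permutation p = 0.3), with overlapping groups for both.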

How the data were processed

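Per the labels' protocols, RNA of the sorted cells was amplified and biotin-labelled (NuGEN Ovation). The authors deposited linear intensity values, 1 for each probe set on each array. Their summary and scaling method: not given in the sources used here. There are no detection calls, and signals near the array medians are read as near background.

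Of the 45101 probe sets, 64 controls were left out of tests. The platform annotation gives 34945 probe sets 1 gene symbol and 932 several, and 9160 are unnamed here. The 2 groups were compared on log2(signal + 16) with limma 3.58.1 in R 4.3.3 (lmFit and eBayes, trend on, two-sided), and p-values were adjusted by Benjamini-Hochberg across 45037 probe sets, at a threshold of 0.05. Array medians were close, so no normalization was added. List genes were read by their probe set with the highest mean. Genes were named by rule: all probe sets of the 6 genes, any list gene past the threshold, the 3 lowest p of each list, and a set of pathway and marker genes. The members, lists and tests were chosen with earlier results of these data known. In the sources used here no probe set of a single name was found for H2-DMb1, H2-T23, H2-Q7, Runx2, Clec9a, Lck or Retnlg, which are not analysed here, and some other list genes are not reported here. The number of arrays limits the precision. The steps were run on simulated data with independent noise and no effect shared by the probe sets of an array. That run therefore does not cover differences that rest on 1 array. Figures used Python 3.11.15 and matplotlib 3.10.9. Promoter windows are from RefSeq.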

Additional observations from a re-analysis of the deposited data

How the results depend on the processing

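No probe set of the 6 genes passed under any of 16 alternatives, of which the lowest adjusted p was 0.47 (H2-DMa 1422527_at without high-ROS replicate 2). Of 199 log2 differences recomputed, 192 kept their sign. With the Gapdh 3' to 5' covariate 6 turned: H2-Eb1 1417025_at to -0.0298, Cd74 1425519_a_at to -0.0526, H2-Aa 1438858_x_at to -0.1004 and 1443783_x_at to -0.0549, H2-Ab1 1450648_s_at to -0.0104 and Ciita 1447075_at to 0.1001; the cause was not tested. Leaving out 1 array turned only Ciita 1447075_at, whose range was -0.1808 to 0.0275. Over all probe sets, 10 were called, against 0 with no mean-variance trend (3070 at an unadjusted p under 0.05), 33 with array weights, 6 with the Gapdh covariate, 24 at an adjusted p under 0.1 and 3 to 8 when each array was left out in turn. With the replicate number as a replicate block 5 were called, and Gata2, called under 8 of 15 alternatives, had a limma adjusted p of 0.0508. The same numbers deviated together only in part, with r = 0.158, 0.123 and -0.0396 for replicates 1, 2 and 3. The highest r of high-ROS replicate 3 was with low-ROS replicate 1, but at 0.0403 it was small. On principal component 1 these arrays lay at opposite ends. With 3 arrays a group, each centred on its group mean, these values cannot decide whether samples were paired. The labels do not say. Quantile normalization, pseudocounts of 1 and 64, the brightest probe set per gene and probe sets above the median signal left the count within 1.5 times. Brightness near background limits what can be read for Ciita.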
